A study of Homo sapiens with 8 samples.

Results

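The transcriptional response of ABC1 cells to DEM was examined across all genes in 4 RNA-seq libraries, of the 8 in the series. ABC1 is an established human lung adenocarcinoma line whose labels state that it carries no KEAP1 or NRF2 mutation. Cells were grown in low-glucose DMEM with fetal bovine serum and received 100 μM DEM for 16 h (2 libraries) or the vehicle DMSO (2 libraries). DEM is diethylmaleate per the study's methods, an electrophile that inhibits KEAP1, and the study used it to raise NRF2 transiently in a line with an intact KEAP1-NRF2 system. No gene was knocked down or deleted in these cells, so the comparison is of the compound and not of NRF2 alone. The other 4 libraries were of HCC4006, a second lung adenocarcinoma line labelled free of mutations in the same genes and treated alike. They are used below where the lines are compared and in results given with the spread of all 8 libraries. Of 57815 identifiers in the files, 12635 averaged 1 FPKM or more over the 4 ABC1 libraries, and these are the genes described. FPKM counts fragments scaled to transcript length and to the library total.

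NRF2, encoded by NFE2L2, is a transcription factor that KEAP1 binds and marks for degradation in unstressed cells. Electrophiles such as DEM modify cysteines of KEAP1, upon which NRF2 accumulates, pairs with small MAF proteins at antioxidant response elements and activates genes for glutathione, thioredoxin, quinone and heme metabolism. Electrophiles also use up glutathione and damage proteins. A second route runs through kinases that phosphorylate eIF2α, upon which translation of ATF4 increases and genes of amino acid supply and of CHOP (DDIT3) are activated, while misfolded cytosolic proteins engage HSF1 and the heat shock genes. These routes are background and were not measured here.

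The files give FPKM and no read counts, so the depth of each library is not known from them and no counting interval is given. The FPKM values of a library summed to between 627085 and 737534, and between 12515 and 12638 genes per library reached 1 FPKM. Transcripts of the mitochondrial genome made up 16.1% and 15.9% of the sum with vehicle and 16.4% and 20.2% with DEM, so that DEM replicate 1 stood above the other 3 libraries. Epithelial markers were high, with EPCAM between 388 and 401 FPKM and KRT8 between 1623 and 2906 FPKM, whereas the lung lineage markers NKX2-1 (0.502 to 0.763 FPKM), NAPSA (0.234 to 0.646 FPKM) and SFTPB (listed at 0) were at or near 0. The leukocyte genes PTPRC and CD3E were at or near 0 as well (0.0357 FPKM or less), CD68, of macrophages, lay between 1.55 and 2.54 FPKM, and of 6 fibroblast markers only COL1A1 exceeded 1 FPKM (3.58 to 5.96 FPKM). The labels do not say whether replicates came from separate cultures (the methods call them biological duplicates), and p-values measure the spread between these libraries. In such bulk libraries, fewer cells of a state and less RNA per cell cannot be told apart.

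Genes of glutathione, quinone and heme metabolism were among the strongest increases in ABC1. By limma on log2(FPKM + 1) with Benjamini-Hochberg adjustment, 97 of the 12635 genes (0.768%) were called upregulated and 55 (0.435%) downregulated at an adjusted p under 0.05. All adjusted p-values below are of this kind, and every log2 fold change is on the log2(FPKM + 1) scale, which understates the change of genes with low FPKM. Over all 12635 genes, the log2 fold change had a median of -0.02 and its standard error one of 0.17. Of the genes called upregulated, 72 had a log2 fold change above 1 and 18 one above 2, whereas 38 of the genes called downregulated fell by more than 1 and 2 by more than 2. The genes called upregulated held 0.418% and 0.416% of the FPKM sum with vehicle and 1.23% and 1.06% with DEM. They were chosen as higher with DEM in these same libraries, so only the size of the rise is informative. Both DEM libraries lay above both vehicle libraries for 3221 genes (25.5%) and below both for 3569 (28.2%), so a lack of overlap is common over all genes, and each of the 152 genes called showed it. An exact two-sided permutation test of 2 libraries against 2 cannot give a p under 0.333.

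Calls rested on few libraries. When 1 library was left out, 51 genes were called upregulated and 18 downregulated without DEM replicate 0, 51 and 17 without DEM replicate 1, 10 and 8 without vehicle replicate 0, and 12 and 9 without vehicle replicate 1. NMRAL2P, OSGIN1, AKR1C1, GCLC, HMOX1, RAP1GAP, CABYR and SLC7A11, 8 genes in all, were called in each of these 4 fits. When the spread was instead estimated over all 8 libraries of both lines, 779 genes (6.17%) were called upregulated and 788 (6.24%) downregulated in ABC1, among them 149 of the 152. The standard error of the ABC1 log2 fold change then had a median of 0.148. This fit adds no ABC1 library, since it shares the spread with HCC4006 and assumes that both lines vary alike. For the gene lists described, the counts called with the spread of all 8 libraries follow those of the 4 libraries, to be read against these larger shares of all genes. After rescaling every library to the same sum (TPM), 122 genes were called upregulated and 119 downregulated, so the share of upregulated genes among the calls went from 63.8% to 50.6%. The plot of all genes shows the calls against expression level.

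**Figure D1:**
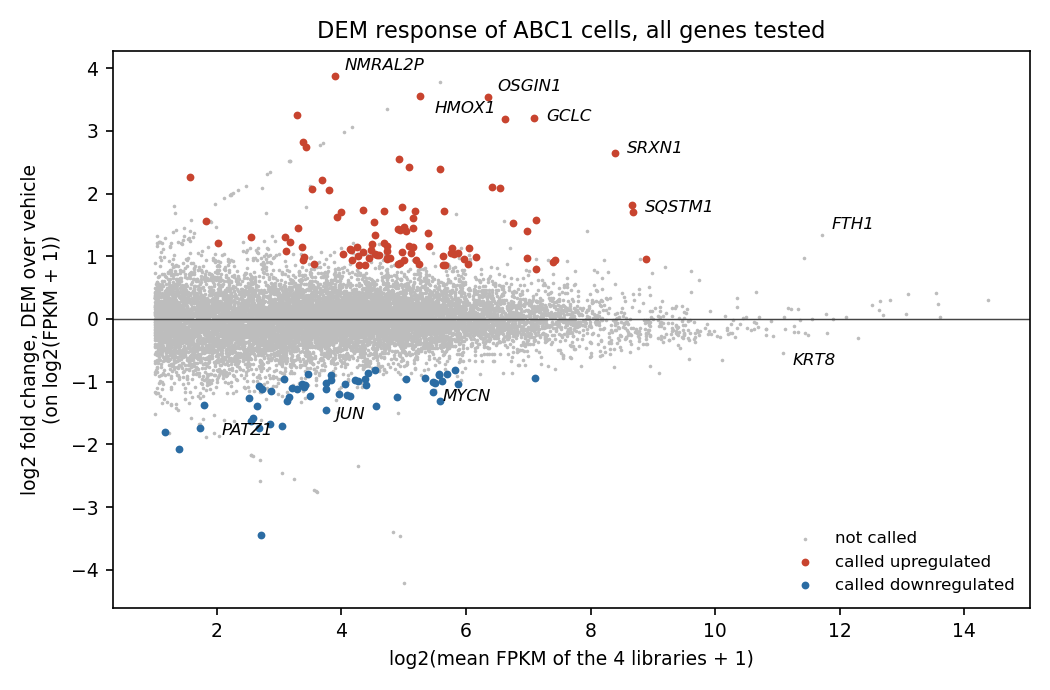
Log2 fold change of DEM over vehicle in ABC1 (vertical axis) against the mean expression of the 4 libraries as log2(mean FPKM + 1) (horizontal axis) for the 12635 genes tested, with genes called upregulated in red, genes called downregulated in blue and all others in grey. The 97 red points reach a log2 fold change of 3.87 (NMRAL2P), and grey points far from 0 missed the threshold.

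Antioxidant response elements share the core TGACNNNGC. The promoters of TXNRD1, GCLM and GPX2, called redox genes with the core near their start, are shown, with the core in capitals on whichever strand it lies, in the RefSeq sequence of GRCh38.p14, 5′ to 3′ along the gene.
TXNRD1 (chr12:104215620-104215779, plus strand): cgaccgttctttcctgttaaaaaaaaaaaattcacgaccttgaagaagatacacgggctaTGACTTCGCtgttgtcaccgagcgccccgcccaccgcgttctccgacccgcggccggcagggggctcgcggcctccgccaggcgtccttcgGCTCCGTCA
GCLM (chr1:93909431-93909524, minus strand): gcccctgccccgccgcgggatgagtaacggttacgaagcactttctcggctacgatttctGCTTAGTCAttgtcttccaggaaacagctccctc
GPX2 (chr14:64942799-64942927, minus strand): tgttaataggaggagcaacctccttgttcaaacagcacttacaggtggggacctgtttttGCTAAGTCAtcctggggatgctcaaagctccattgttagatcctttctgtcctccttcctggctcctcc
The core began 99 and 8 bases before the start of TXNRD1, 34 bases before that of GCLM and 122 bases before that of GPX2. In windows of 250 bases before to 50 after the start, which the RefSeq table gave for 122 of the 152 called genes, the core was found on either strand in 16 of 80 promoters of genes called upregulated (20.0%), in 5 of 42 of genes called downregulated (11.9%) and in 15.3% of the 9386 promoters of genes tested. Over all 27305 promoters in the table the share was 13.6%. A heat shock element, GAANNTTC on either strand, was found in 7 of 80 promoters of genes called upregulated (8.75%), in 4 of 42 of genes called downregulated (9.52%), in 4.43% of those of genes tested and in 6.87% of all in the table. An E2F element, TTTGGCGC or TTTCCCGC on either strand, was found in 1.25%, 2.38%, 3.82% and 2.31% of the same groups. Among genes called with the spread of all 8 libraries, the antioxidant core was in 16.7% of promoters of upregulated and 14.7% of those of downregulated genes. For the heat shock element the shares in the same groups were 6.22% and 3.15%, and for the E2F element 2.45% and 4.64%. These are matches of letters and not binding sites, and known antioxidant response elements also lie outside such windows.

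Glutathione genes had the largest share of members called among the 59 gene lists examined. Of the genes for glutathione synthesis and cystine uptake, 7 of 12 tested were called upregulated and 0 downregulated, with a median log2 fold change of 0.96, and the counts were 7 and 0 with the spread of all 8 libraries. GCLC, the catalytic subunit of glutamate-cysteine ligase, which catalyses the rate-limiting step (chromosome 6, 53362139 to 53481768, minus strand of GRCh37), had 20.8 and 31.2 FPKM with vehicle and 231 and 256 FPKM with DEM. It rose about 9.37-fold on linear FPKM (log2 fold change 3.21, standard error 0.21, adjusted p = 0.00798). GCLM, the modifier subunit, rose by less, from 15.2 and 17.6 to 56.8 and 48 FPKM (log2 fold change 1.61, standard error 0.15, adjusted p = 0.0221), and neither gene's groups overlapped. SLC7A11, the transport subunit of the cystine-glutamate exchanger, had 7.97 and 7.82 FPKM with vehicle and 51.2 and 51.1 FPKM with DEM (log2 fold change 2.55, standard error 0.12, adjusted p = 0.00428). Its partner SLC3A2 went from 119 and 115 to 214 and 225 FPKM. GSR, which regenerates reduced glutathione, had 60.7 and 75.7 FPKM with vehicle and 174 and 190.2 FPKM with DEM and a log2 fold change of 1.41. CBS, of the transsulfuration route to cysteine, rose with a log2 fold change of 1.02 and CHAC1, which degrades glutathione, with 1.41. GSS, the second enzyme of synthesis, had 13.7 and 16.4 FPKM with vehicle and 12.9 and 12.4 with DEM (adjusted p = 0.405).

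Thioredoxin genes were split. TXNRD1, the cytosolic thioredoxin reductase, had 161 and 196 FPKM with vehicle and 614 and 642 FPKM with DEM (log2 fold change 1.81, standard error 0.15, adjusted p = 0.0183). SRXN1, sulfiredoxin, which restores overoxidised peroxiredoxins, had 79.5 and 105 FPKM with vehicle and 558 and 593 FPKM with DEM and a log2 fold change of 2.64. These were the 2 members called upregulated of 19 tested in the thioredoxin and peroxiredoxin system, whose median log2 fold change was 0.06 and of which 5 were called upregulated and 0 downregulated with the spread of all 8 libraries. TXN itself had 171 and 222 FPKM with vehicle and 313 and 358 with DEM (adjusted p = 0.0924, and 0.0134 with the spread of all 8 libraries), and PRDX1 406 and 452 FPKM with vehicle and 582 and 531 with DEM (adjusted p = 0.205). Among 14 glutathione S-transferases and glutathione peroxidases, only GPX2, the gastrointestinal glutathione peroxidase, was called, with 3.25 and 3.61 FPKM with vehicle and 18.7 and 16.7 FPKM with DEM (log2 fold change 2.08). The list's median was -0.27, and 1 member was called upregulated and 2 downregulated with the spread of all 8 libraries. In both DEM libraries 8 members lay below vehicle, against 28.2% of all genes tested. Among these was GPX1, with 56.9 and 57.9 FPKM with vehicle and 33.4 and 37.5 with DEM (adjusted p = 0.0671, and 0.00622 with the spread of all 8 libraries). GPX4, which reduces lipid peroxides, had 156 and 166 FPKM with vehicle and 130.2 and 144 with DEM (adjusted p = 0.356).

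Genes that detoxify quinones, carbonyls and aldehydes included some of the largest increases, and 6 of 17 tested were called upregulated, none downregulated (9 and 0 with the spread of all 8 libraries). NQO1, the quinone reductase used as the classical marker of NRF2 activity, had 56 and 82.8 FPKM with vehicle and 193 and 221 FPKM with DEM (log2 fold change 1.59, standard error 0.21, adjusted p = 0.0422). The aldo-keto reductases AKR1C1 (0.863 and 0.834 to 15.8 and 17.5 FPKM), AKR1C2 (2.97 and 7.78 to 60.3 and 78.6 FPKM) and AKR1C3 (10.6 and 18.8 to 75.6 and 82.1 FPKM) were all called, with log2 fold changes of 3.25, 3.56 and 2.40. Their near-identical sequences can exchange reads, so the split between the 3 genes is uncertain. UGDH, which makes the UDP-glucuronate used in conjugation, rose from 26.1 and 36.2 to 119 and 155 FPKM (log2 fold change 2.11). NQO2 and CBR3, with log2 fold changes of 1.06 and 0.93, missed the threshold (adjusted p = 0.06 and 0.0668). AKR1B10, a related reductase, averaged under 1 FPKM and was not tested, with 0.402 and 0.371 FPKM with vehicle and 1.45 and 1.56 FPKM with DEM. CYP4F3, a fatty acid omega-hydroxylase, rose from 3.60 and 3.39 to 24.3 and 16.1 FPKM. None of 14 genes of NADPH supply, on which these reductases depend, was called (2 up and 2 down with the spread of all 8 libraries). PGD, of the pentose phosphate pathway, had 144 and 191 FPKM with vehicle and 186 and 263 with DEM (adjusted p = 0.335) and TALDO1 238 and 248 FPKM with vehicle and 244 and 256 with DEM (adjusted p = 0.877).

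Heme breakdown was strongly induced at its first step. HMOX1, heme oxygenase, had 17.3 and 20.1 FPKM with vehicle and 182 and 174 FPKM with DEM, a 9.51-fold rise of its mean (log2 fold change 3.19, standard error 0.13, adjusted p = 0.00428). BLVRB, which reduces biliverdin, rose from 101 and 101 to 178 and 175 FPKM. The ferritin subunits that store the released iron gained more transcript than any other nuclear gene in FPKM: FTH1 had 1539.8 and 2291 FPKM with vehicle and 4082 and 5519.6 with DEM and FTL 1709.9 and 2007 FPKM with vehicle and 3479 and 3783 with DEM. Both missed the threshold (adjusted p = 0.0768 and 0.0696) and passed it with the spread of all 8 libraries (0.0117 and 0.00451), and both share reads with many processed pseudogenes. Ferroportin, the iron exporter SLC40A1, had 46 and 40.2 FPKM with vehicle and 36.9 and 48.1 with DEM, with overlapping groups. On the synthesis side, ALAS1, the first enzyme, had 13.6 and 18.6 FPKM with vehicle and 32.2 and 35.4 with DEM and FECH, the last, 37.4 and 52.4 FPKM with vehicle and 82.1 and 91 with DEM (adjusted p = 0.0627 and 0.0731). In all, 2 of 23 heme and iron genes tested were called, at a median of 0.01, and with the spread of all 8 libraries 7 were called upregulated and 1 downregulated.

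Genes of the NRF2 control circuit, a list that also held the NRF2 target NMRAL2P, were mostly higher. Of 16 tested, 4 were called upregulated and 0 downregulated (median 0.53), and 9 were called upregulated with the spread of all 8 libraries. KEAP1 rose from 47 and 46.9 to 90.9 and 96.6 FPKM (log2 fold change 0.98, standard error 0.12, adjusted p = 0.0365). SQSTM1, whose protein p62 binds KEAP1 and carries cargo to autophagosomes, had 183 and 199 FPKM with vehicle and 644 and 609 FPKM with DEM (log2 fold change 1.71). NFE2L2 itself had 57 and 69.5 FPKM with vehicle and 90.9 and 114 with DEM and the small MAF partner MAFG 8.66 and 11.1 FPKM with vehicle and 21.6 and 27.1 with DEM, both without overlap but not called (adjusted p = 0.107 and 0.0502). OSGIN1, an oxidative stress induced growth inhibitor (chromosome 16, 83964916 to 83999937, plus strand of GRCh37), rose from 8.55 and 16.5 to 145 and 154 FPKM. NMRAL2P, a pseudogene known as an NRF2 target, had 0.716 and 1.10 FPKM with vehicle and 30.3 and 23.7 FPKM with DEM and with 3.87 the largest log2 fold change of the genes called, although it passed the expression minimum only through the DEM libraries. Of the 97 genes called upregulated, 4 had a vehicle mean under 1 FPKM in this way. BACH1, which competes at the same elements, had 6.16 and 5.90 FPKM with vehicle and 8.49 and 7.54 with DEM (adjusted p = 0.225).

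**Figure D2:**
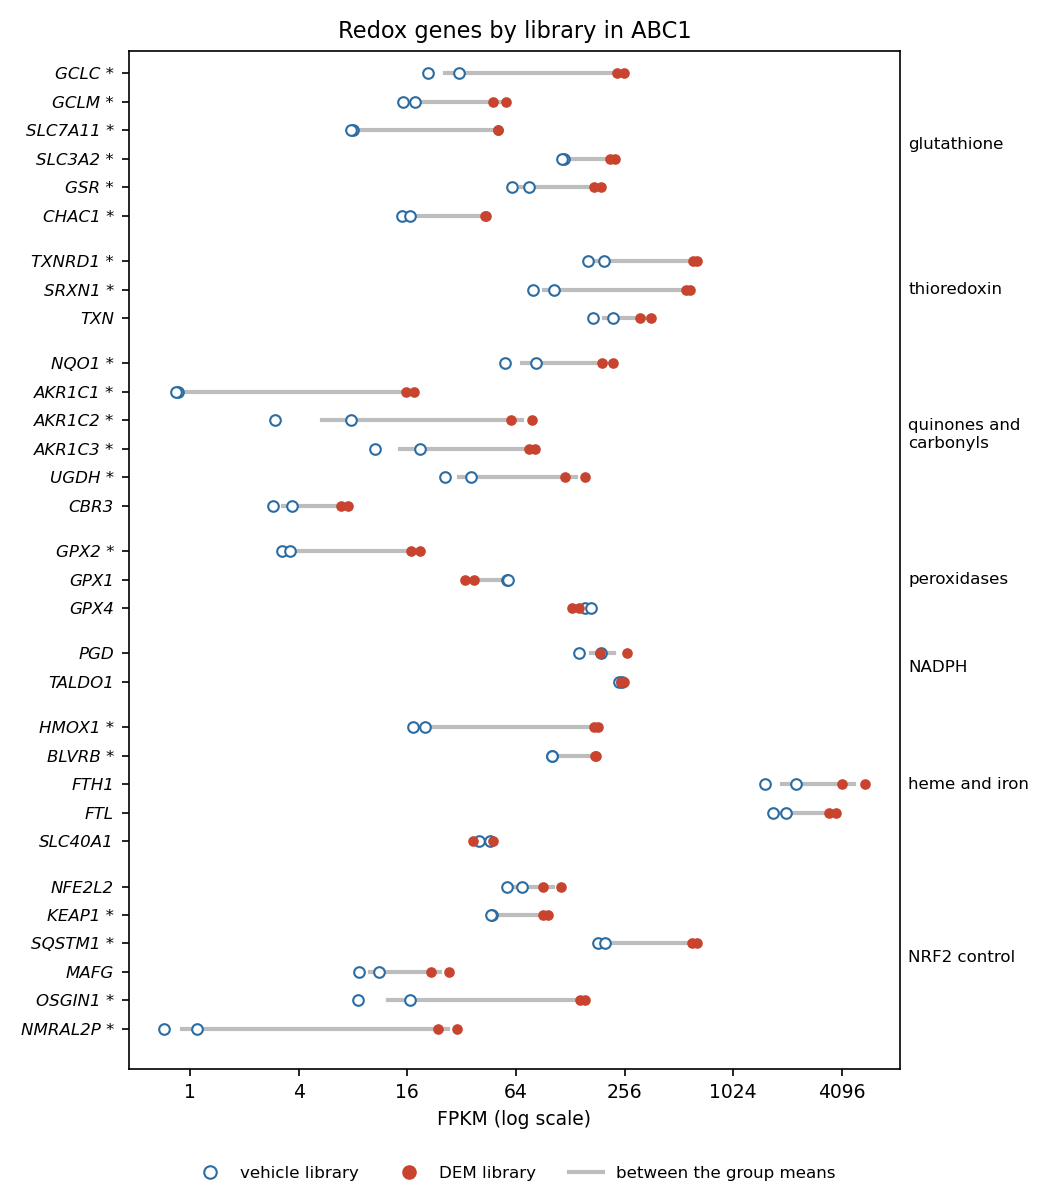
FPKM of redox genes in each ABC1 library on a log scale (horizontal axis), grouped by role, with vehicle libraries as open blue circles, DEM libraries as red dots, a grey line between the group means and an asterisk on genes called. Vehicle and DEM libraries are well apart for GCLC, SLC7A11, SRXN1 and HMOX1, whereas those of PGD and SLC40A1 overlap.

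A second set of increases was among genes listed for the ATF4 pathway and amino acid supply. The activity of ATF4 was not measured. Of the ATF4 pathway factors and effectors, 7 of 23 tested were called upregulated and 0 downregulated, and the median log2 fold change was 0.72. Above vehicle in both DEM libraries lay 20 of them, against 25.5% of all genes tested. The spread of all 8 libraries gave 15 calls upward and 1 downward in this list. Its highest log2 fold change, 2.55, was that of SLC7A11, which was also counted among the glutathione genes. The calls of the ATF4 and glutathione lists therefore overlap. ATF4 transcript had 249 and 292 FPKM with vehicle and 365 and 429.6 FPKM with DEM, which was not called (log2 fold change 0.55, adjusted p = 0.132). Several of its partners and targets were. DDIT3, which encodes CHOP, had 16.7 and 17.1 FPKM with vehicle and 53 and 39.9 FPKM with DEM (log2 fold change 1.40, standard error 0.17, adjusted p = 0.0365). TRIB3, a pseudokinase that feeds back on ATF4, went from 18.8 and 16.4 to 37.6 and 33.6 FPKM, and ADM2, a secreted peptide, from 2.62 and 2.14 to 7.60 and 7.09 FPKM. The dimer partners CEBPG and CEBPB rose with log2 fold changes of 0.94 and 0.89. CEBPB had 20.4 and 20.9 FPKM with vehicle and 40.5 and 37.6 with DEM. ATF3 had 4.34 and 3.83 FPKM with vehicle and 8.25 and 10.4 with DEM, and the stress cytokine GDF15 had 26.5 and 24.2 FPKM with vehicle and 62.9 and 111 with DEM, the DEM libraries of the latter being far apart (adjusted p = 0.0614 and 0.0568). PCK2, mitochondrial PEP carboxykinase, and NIBAN1, both known ATF4 targets that were on no list, rose with log2 fold changes of 1.46 and 0.99.

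Composite elements bound by ATF4 with C/EBP partners share the core TGATGNAAN. It is shown in capitals in the promoters of CHAC1 and ASNS, in the RefSeq sequence of GRCh38.p14, 5′ to 3′ along the gene.
CHAC1 (chr15:40953221-40953329, plus strand): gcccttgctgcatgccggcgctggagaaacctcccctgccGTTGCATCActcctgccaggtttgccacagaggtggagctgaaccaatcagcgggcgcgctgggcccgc
ASNS (chr7:97872409-97872536, minus strand): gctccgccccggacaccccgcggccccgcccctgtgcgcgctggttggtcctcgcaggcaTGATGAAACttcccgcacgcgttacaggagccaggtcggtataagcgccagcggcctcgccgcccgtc
The match began 210 bases before the start of CHAC1 and 68 bases before that of ASNS. On either strand it was present in 3 of the 80 promoters of genes called upregulated (3.75%), those of CHAC1, ASNS and SLC3A2, in 0 of 42 of genes called downregulated, in 1.6% of the 9386 promoters of genes tested and in 3.67% of all 27305 in the table. Among genes called with the spread of all 8 libraries the shares were 2.78% of 611 promoters of upregulated and 2.65% of 604 of downregulated genes.

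Of 15 genes on the list of serine and one-carbon enzymes, which also held asparagine synthetase, 2 were called upregulated and 0 downregulated (6 and 3 with the spread of all 8 libraries). ASNS, asparagine synthetase, had 31.9 and 39.9 FPKM with vehicle and 71.1 and 77.6 FPKM with DEM (log2 fold change 1.04, standard error 0.15, adjusted p = 0.0482), and PSAT1, of serine synthesis, had 77.2 and 90.7 FPKM with vehicle and 166 and 165 FPKM with DEM (log2 fold change 0.98). The other serine enzymes PHGDH (34.1 and 41.6 FPKM with vehicle and 53.6 and 60.6 with DEM) and PSPH (45.7 and 50.7 FPKM with vehicle and 72.4 and 72.7 with DEM) were higher without a call (adjusted p = 0.114 and 0.0819). MTHFD2, of the mitochondrial folate cycle, had 114 and 139.8 FPKM with vehicle and 204 and 215 with DEM (adjusted p = 0.0789). In contrast, SHMT1, of the cytosolic cycle, had 23.7 and 26.2 FPKM with vehicle and 14.2 and 14.8 with DEM, and TYMS, thymidylate synthase, 118 and 156 FPKM with vehicle and 60.5 and 90.8 with DEM (adjusted p = 0.0633 and 0.125). Among 17 amino acid transporters, 2 were called, both being the subunits of the cystine exchanger. Above vehicle in both DEM libraries lay 13 of the transporters, against 25.5% of all genes tested, with 8 called upregulated and 2 downregulated by the spread of all 8. The glutamine carrier SLC1A5 had 183 and 220.4 FPKM with vehicle and 339 and 442 with DEM and the leucine carrier SLC7A5 155 and 191 FPKM with vehicle and 233 and 272 with DEM (adjusted p = 0.0723 and 0.143). None of 23 cytosolic tRNA synthetases was called, at a median of 0.28, against -0.23 for 17 mitochondrial ones. The spread of all 8 libraries gave 4 upward and 0 downward calls among the cytosolic and 2 and 3 among the mitochondrial ones.

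Genes of the endoplasmic reticulum unfolded protein response gave no call in the 4 libraries. Over 30 members tested the median was 0.16, and 12 lay above vehicle in both DEM libraries, against 25.5% of all genes tested. In both DEM libraries 2 lay below vehicle, against 28.2% of all genes tested. With the spread of all 8 libraries, 3 were called upregulated and 1 downregulated. HSPA5, the chaperone BiP, had 176 and 202 FPKM with vehicle and 201 and 216 with DEM (adjusted p = 0.577), HSP90B1 had 658 and 786 FPKM with vehicle and 672 and 778 with DEM, and XBP1 86.3 and 81.5 FPKM with vehicle and 103 and 89.4 with DEM. The sensor ERN1 had 2.19 and 2.17 FPKM with vehicle and 4.63 and 5.27 with DEM (adjusted p = 0.0696, and 0.00952 with the spread of all 8 libraries).

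Cytosolic chaperones were shifted upward with a single call. DNAJB4, a cofactor of HSP70, had 11 and 8.45 FPKM with vehicle and 52.6 and 59.6 FPKM with DEM (log2 fold change 2.42, standard error 0.16, adjusted p = 0.00904). The 27 members tested, DNAJB4 included, had a median of 0.43, and 17 lay above vehicle in both DEM libraries, against 25.5% of all genes tested. With the spread of all 8 libraries, 12 were called upregulated and 2 downregulated. HSPA1A and HSPA1B, near-identical copies of inducible HSP70, had 54.8 and 86.5 FPKM with vehicle and 107 and 153 with DEM and 25.3 and 38 FPKM with vehicle and 50.01 and 63.7 with DEM (adjusted p = 0.147 and 0.121). HSPH1 had 40.7 and 51.1 FPKM with vehicle and 84.9 and 87.5 with DEM, BAG3 32.6 and 38.7 FPKM with vehicle and 59.7 and 73.8 with DEM, and DNAJB1, a direct HSF1 target, 88 and 97.5 FPKM with vehicle and 140.3 and 154 with DEM, each without overlap (adjusted p = 0.06, 0.0671 and 0.0739). The constitutive HSPA8 had 1451 and 1848 FPKM with vehicle and 1492 and 1893 with DEM, with overlapping groups. Proteasome subunits, 39 in number, had a median of 0.07 and no call (1 up with the spread of all 8 libraries).

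Autophagy and lysosome genes held 4 calls of 35, all upregulated (median 0.22), and 11 upward and 1 downward calls with the spread of all 8 libraries. Beside SQSTM1, these were GABARAPL1, a membrane-bound autophagosome protein, with 32.1 and 36.3 FPKM with vehicle and 70.9 and 73.6 FPKM with DEM, TFE3, a transcription factor of lysosomal genes, with 20.7 and 21.4 FPKM with vehicle and 48.2 and 47.6 FPKM with DEM, and GLA, lysosomal alpha-galactosidase, with 14.7 and 15.3 FPKM with vehicle and 31.6 and 31.2 FPKM with DEM. Their log2 fold changes were 1.06, 1.15 and 1.02. MAP1LC3B had 22.3 and 19.6 FPKM with vehicle and 35.5 and 34.1 with DEM (adjusted p = 0.0671). SAT1, which acetylates spermidine and spermine, was called too, with 26 and 24.1 FPKM with vehicle and 64.4 and 51.6 with DEM (adjusted p = 0.0422).

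**Figure D3:**
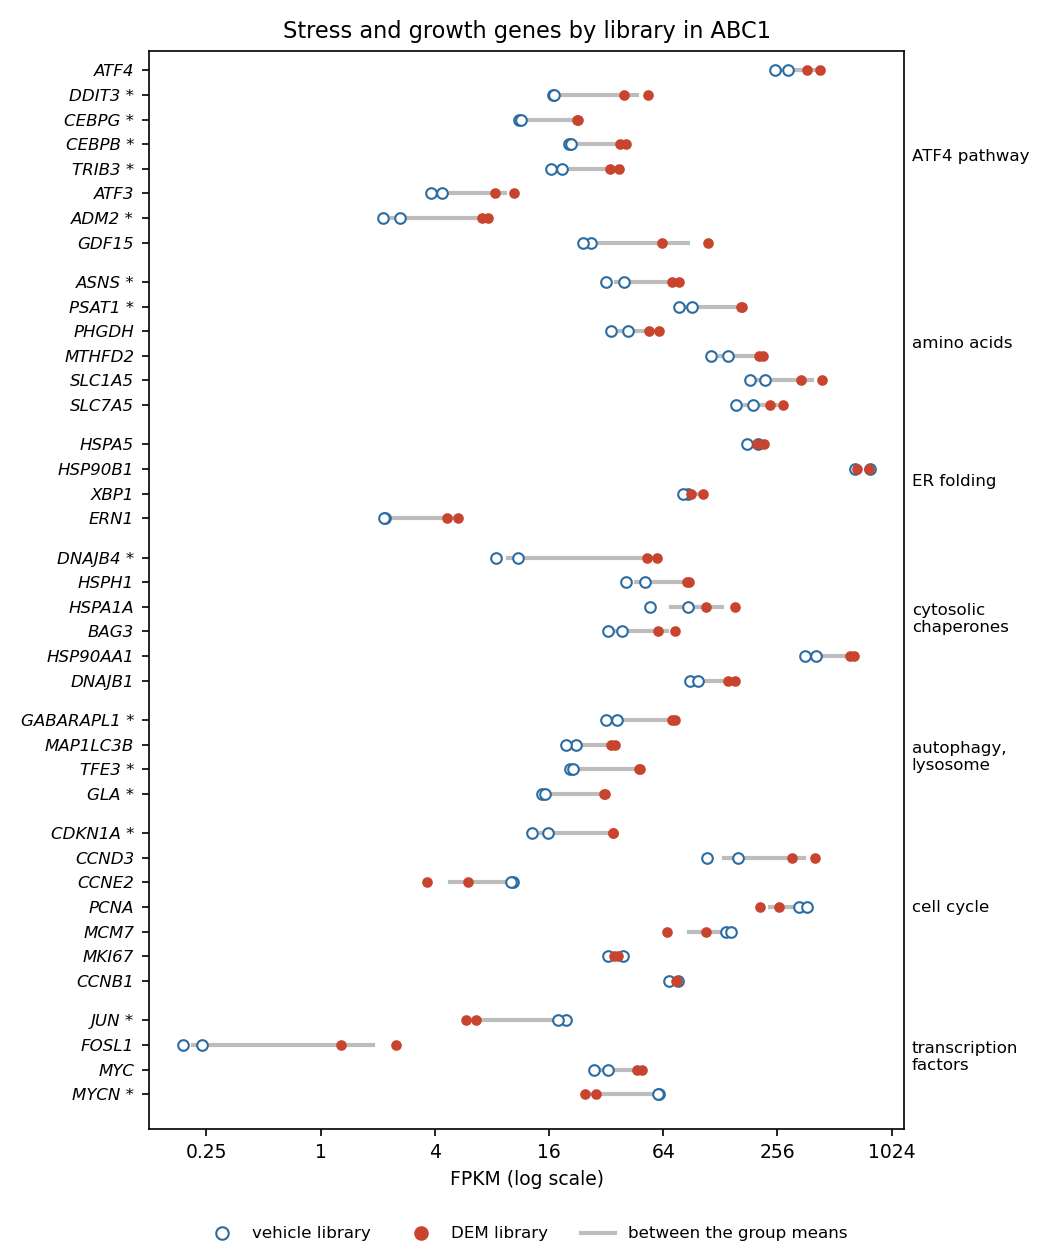
FPKM of genes of the ATF4 pathway, amino acid supply, protein folding, autophagy, cell cycle and selected transcription factors in each ABC1 library on a log scale (horizontal axis), with vehicle libraries as open blue circles, DEM libraries as red dots, a grey line between the group means and an asterisk on genes called. DEM libraries sit to the right for the ATF4 pathway, on top of vehicle for HSP90B1, MKI67 and CCNB1, and to the left for JUN, MYCN and PCNA.

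Of the cell cycle genes, an inhibitor was called. CDKN1A, the cyclin-dependent kinase inhibitor p21, had 13.1 and 15.9 FPKM with vehicle and 34.8 and 34.8 FPKM with DEM (log2 fold change 1.22, standard error 0.14, adjusted p = 0.0365). CCND3, a G1 cyclin, was higher with 109 and 159 FPKM with vehicle and 304 and 404 with DEM, and CCNE2, which drives S phase entry, lower with 10.4 and 10.1 FPKM with vehicle and 3.63 and 5.95 with DEM, neither being called (adjusted p = 0.06 and 0.0924). CCND1 had 156 and 188 FPKM with vehicle and 163 and 243 with DEM and the S phase factor E2F1 33.4 and 40.9 FPKM with vehicle and 32.7 and 41.3 with DEM (adjusted p = 0.605 and 0.983). None of 52 replication and nucleotide genes was called, yet 48 had a log2 fold change below 0, 27 lay below vehicle in both DEM libraries against 28.2% of all genes tested, and the median was -0.37. With the spread of all 8 libraries, 10 of them were called downregulated. PCNA, the sliding clamp, had 331 and 364 FPKM with vehicle and 207 and 259 with DEM, MCM10 24.2 and 30.7 FPKM with vehicle and 14.3 and 16.5 with DEM, and MCM7, of the replicative helicase, 137 and 146 FPKM with vehicle and 66.8 and 108 with DEM (adjusted p = 0.126, 0.0802 and 0.16). MCM2, of the same helicase, had 134 and 185 FPKM with vehicle and 84.1 and 149 with DEM, with overlapping groups (adjusted p = 0.393). The size of the shift depended on the library, since the list's median was -0.15 without DEM replicate 0 and -0.61 without DEM replicate 1. Recombination and Fanconi genes had a median of -0.21 (3 of 34 called downregulated with the spread of all 8 libraries) and RAD51AP1 the largest decrease among them, 21.2 and 19.3 FPKM with vehicle and 12.9 and 6.26 with DEM (adjusted p = 0.131).

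Mitotic genes had a median close to that of all genes. The 79 tested had a median of -0.06, and none was called (2 up and 3 down with the spread of all 8 libraries). MKI67 had 39.3 and 32.8 FPKM with vehicle and 36.8 and 35.1 with DEM and CCNB1 68.7 and 76.9 FPKM with vehicle and 75.9 and 74.9 with DEM, whereas PLK1 had 73.4 and 89.9 FPKM with vehicle and 92.2 and 121 with DEM, each with an adjusted p of at least 0.299. Replication-dependent histone genes, whose mature mRNA normally lacks a poly(A) tail and is therefore poorly sampled after poly(A) selection, had a median of 0.86 over the 8 of 22 that passed the expression minimum, and of 0.36 with no minimum. H2BC5 was the member called, against 5 with the spread of all 8 libraries, with 22.5 and 20.3 FPKM with vehicle and 47.1 and 44.3 FPKM with DEM (log2 fold change 1.06), and the near-identical histone copies can exchange reads. TP53I3, a quinone oxidoreductase-like p53 target, rose from 4.37 and 4.40 to 21.2 and 21.4 FPKM (log2 fold change 2.05, standard error 0.13, adjusted p = 0.00798). The 28 p53 targets tested had a median of -0.06, with TP53I3 and CDKN1A called upregulated in the 4 libraries and 6 upregulated and 0 downregulated with the spread of all 8. MDM2 had 38.6 and 35 FPKM with vehicle and 35.3 and 32 with DEM (adjusted p = 0.607).

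The transcription factors JUN, BATF and MYCN were called downregulated. Of 23 AP-1 and immediate early genes, 15 had a log2 fold change above 0 (median 0.13), 0 were called upregulated and 1 downregulated, and 5 and 1 with the spread of all 8 libraries. The 15 MYC network genes had a median of -0.17, with 0 called upregulated and 1 downregulated, and 2 and 1 with the spread of all 8. JUN, a subunit of AP-1 (chromosome 1, 59242517 to 59249720, minus strand of GRCh37), had 19.7 and 17.8 FPKM with vehicle and 5.83 and 6.61 FPKM with DEM (log2 fold change -1.45, standard error 0.14, adjusted p = 0.0226). FOSL1, its partner, went the other way with 0.236 and 0.188 FPKM with vehicle and 1.28 and 2.48 with DEM and was not called (adjusted p = 0.101, and 0.0103 with the spread of all 8 libraries). FOSL1 passed the expression minimum only through the DEM libraries. MYCN, an oncogenic paralog of MYC that ABC1 expressed at a high level (chromosome 2, 16080672 to 16087129, plus strand of GRCh37), had 60.6 and 60.3 FPKM with vehicle and 24.7 and 28.3 FPKM with DEM (log2 fold change -1.16, standard error 0.13, adjusted p = 0.0326), whereas MYC had 32.7 and 27.7 FPKM with vehicle and 46.6 and 49.2 with DEM (adjusted p = 0.0802). BATF, another AP-1 family member that was not on the AP-1 list, fell from 60.1 and 68.4 to 31.5 and 31.8 FPKM. Genes that report ERK activity differed between the DEM libraries: DUSP6, a phosphatase of ERK, had 5.62 and 7.47 FPKM with vehicle and 8.36 and 25.6 with DEM, ETV5 9.59 and 12 FPKM with vehicle and 17.9 and 34.2 with DEM and SPRY4 1.53 and 2.22 FPKM with vehicle and 3.43 and 5.47 with DEM, so DEM replicate 1 was the higher each time and none was called (adjusted p = 0.257, 0.121 and 0.129). FOS had 7.31 and 6.38 FPKM with vehicle and 8.37 and 16.3 with DEM (adjusted p = 0.241), DEM replicate 1 again being the higher. The median of 16 ERK feedback genes was 0.32 (5 called upregulated and 1 downregulated with the spread of all 8 libraries), and 0.21 without that library. EGFR had 89.1 and 70.04 FPKM with vehicle and 62.2 and 62.7 with DEM and its ligand gene TGFA 6.52 and 5.58 FPKM with vehicle and 3.91 and 2.75 with DEM (adjusted p = 0.269 and 0.126). NOTCH3, which the study examined as an effector of persistently active NRF2, had 16.2 and 16.1 FPKM with vehicle and 15.2 and 13.9 with DEM (adjusted p = 0.548), with a 95% confidence interval of the log2 fold change from -0.45 to 0.17.

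Ribosomal protein genes were slightly lower. All but 3 of 78 ribosomal protein genes had a log2 fold change below 0, with a median of -0.23. Below vehicle in both DEM libraries lay 53 of them, against 28.2% of all genes tested, but none was called by limma in the 4 libraries or with the spread of all 8. Of the same list, none lay above vehicle in both DEM libraries. RPL3 had 517 and 517 FPKM with vehicle and 444 and 414 with DEM and RPS6 539 and 549.7 FPKM with vehicle and 460.4 and 437 with DEM (adjusted p = 0.303 and 0.284). Such genes have many processed pseudogenes and share reads with them. Splicing factors had a median of -0.25, and 1 of 28 was called downregulated (6 with the spread of all 8 libraries). In both DEM libraries 17 of the 28 lay below vehicle, against 28.2% of all genes tested. HNRNPDL fell from 188 and 174 to 90.3 and 96.5 FPKM (log2 fold change -0.95, standard error 0.12, adjusted p = 0.0422), and HNRNPA1 had 639 and 609.5 FPKM with vehicle and 362 and 378 with DEM (adjusted p = 0.0657). Ribosome biogenesis genes had a median of -0.18 and no call (3 down with the spread of all 8 libraries). Nuclear genes of respiratory complex I had a median of -0.13 over 37 genes, and 34 had a log2 fold change below 0 (2 called downregulated with the spread of all 8 libraries). In both DEM libraries 20 of these 37 lay below vehicle, against 28.2% of all genes tested. The mRNAs of the mitochondrial genome had a median of 0.23 over 13, which was 0.02 without DEM replicate 1, the library with the large mitochondrial share. By change of the mean FPKM, 8 of the 10 largest rises were those of mitochondrial mRNAs, led by MT-ATP8 with 15614 and 21156 FPKM with vehicle and 14842 and 33795 with DEM, beside FTH1 and FTL, and none of these 10 was called. The largest falls of the mean FPKM were those of IGF2, a growth factor, with 5301 and 5810.1 FPKM with vehicle and 3912 and 5162 with DEM, KRT8 with 2271 and 2906 FPKM with vehicle and 1623 and 1929 with DEM and ACTB, cytoplasmic actin, with 3243 and 4449 FPKM with vehicle and 2888 and 3699.8 with DEM, the last with overlapping groups (adjusted p = 0.461, 0.203 and 0.638). RPL8, RPL37, RPS25, PTMA, KRT18 and TUBA1B were also among the 10 largest falls, none being called. GAPDH, of glycolysis, had 1968 and 2557 FPKM with vehicle and 2269.6 and 2777 with DEM (adjusted p = 0.692).

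**Figure D4:**
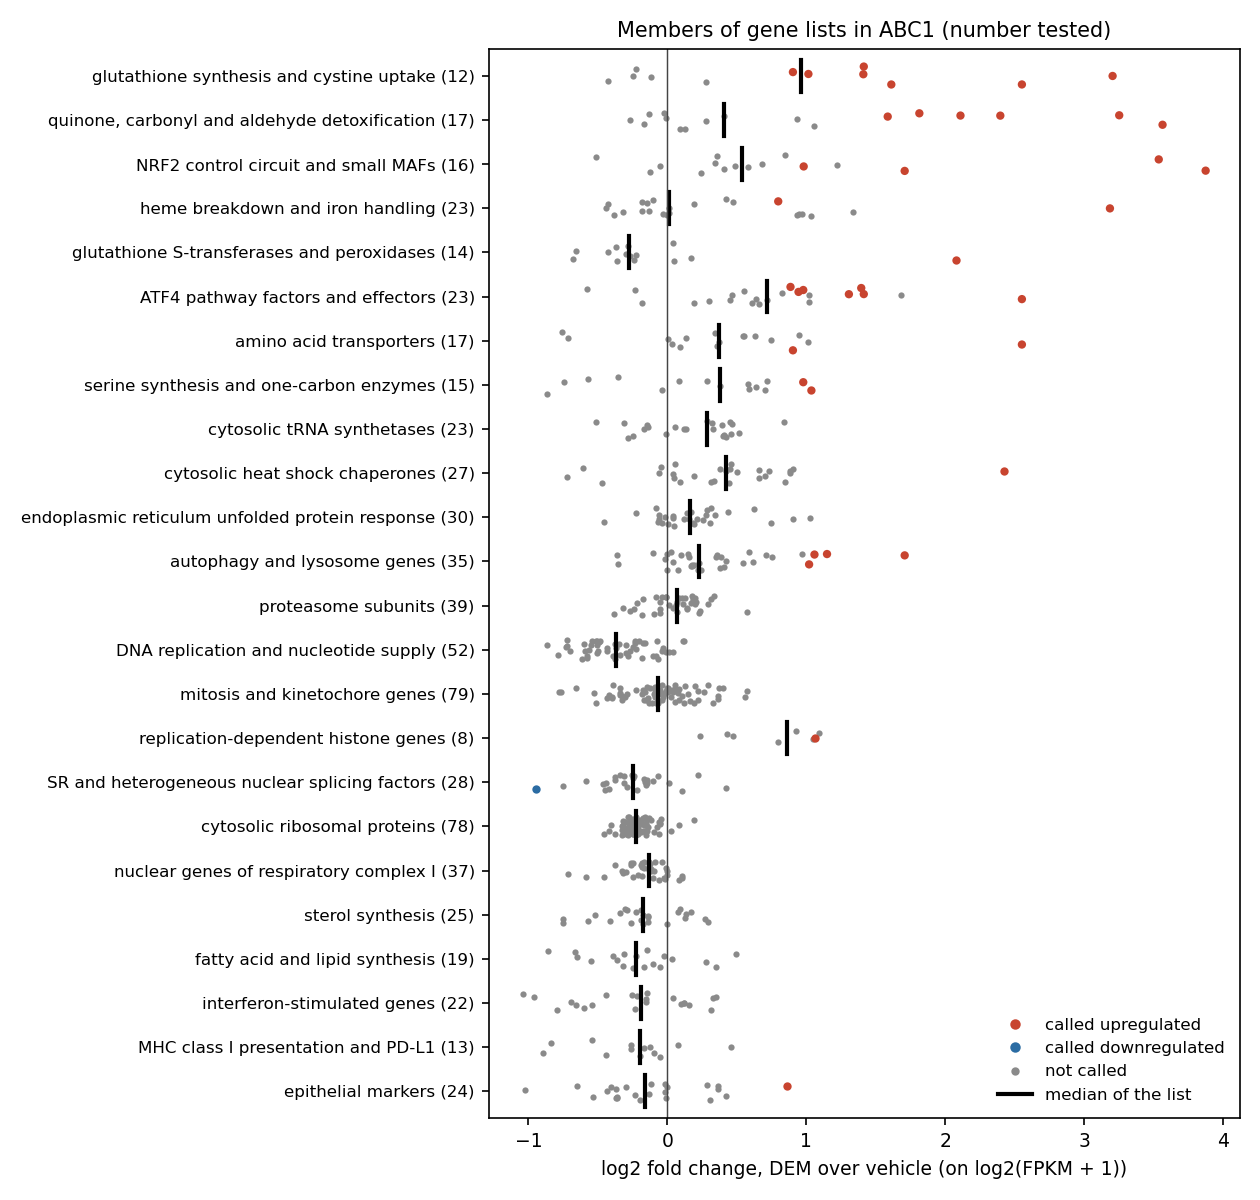
Log2 fold change of DEM over vehicle (horizontal axis) of each tested member of 24 gene lists in ABC1, with genes called upregulated in red, genes called downregulated in blue, all others in grey, and the median of each list as a black bar. Glutathione and ATF4 genes spread far to the right, ribosomal protein genes form a narrow cloud around a median of -0.23, and replication genes lie mostly to the left of 0.

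Lipid synthesis genes were mostly lower without a call in the 4 libraries, and oxygen-regulated genes held 2 calls. SREBF1, a transcription factor of lipogenesis, had 131 and 117 FPKM with vehicle and 63.8 and 71.8 with DEM (adjusted p = 0.0564, and 0.00851 with the spread of all 8 libraries), and MVK, mevalonate kinase, 39.6 and 35.2 FPKM with vehicle and 24.8 and 19.1 with DEM (adjusted p = 0.0904). The desaturase SCD had 787 and 607 FPKM with vehicle and 739 and 527 with DEM (adjusted p = 0.742). None of 25 sterol and 19 fatty acid genes was called, at medians of -0.18 and -0.23. Below vehicle in both DEM libraries lay 14 of the sterol genes, against 28.2% of all genes tested. With the spread of all 8 libraries 6 of the sterol genes were called downregulated and 0 upregulated, against 2 and 1 of the fatty acid genes. VEGFA, the angiogenic growth factor, had 53.8 and 55.5 FPKM with vehicle and 159.7 and 159 FPKM with DEM (log2 fold change 1.53, standard error 0.12, adjusted p = 0.0153). P4HA2, a collagen prolyl hydroxylase, had 15.4 and 15.2 FPKM with vehicle and 42.2 and 43.7 FPKM with DEM and a log2 fold change of 1.43, and PLOD2, a collagen lysyl hydroxylase, fell from 21.7 and 21.1 to 9.07 and 10.8 FPKM, so that these hydroxylases moved apart. VEGFA and P4HA2 were the calls of the 4 libraries among 19 hypoxia-inducible genes (median 0.14). Of this list, 11 lay above vehicle in both DEM libraries, against 25.5% of all genes tested. With the spread of all 8, 6 of the list were called upregulated and 0 downregulated. SLC2A1, the glucose carrier, had 89.7 and 101 FPKM with vehicle and 88.4 and 82.5 with DEM (adjusted p = 0.518).

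Interferon, antigen presentation and keratin genes held few calls. IFIT2 had 3.37 and 2.03 FPKM with vehicle and 0.85 and 0.705 with DEM and OAS3, which makes oligoadenylates, 3.55 and 3.83 FPKM with vehicle and 1.32 and 1.49 with DEM (adjusted p = 0.106 and 0.0703). None of 22 interferon-stimulated genes was called, at a median of -0.19, and 6 were called downregulated with the spread of all 8 libraries. Of MHC class I genes, none of 13 was called (1 up and 2 down with the spread of all 8 libraries). The immunoproteasome subunit PSMB9 had 5.49 and 6.11 FPKM with vehicle and 2.17 and 3.22 with DEM (adjusted p = 0.0926). A butyrophilin and a B7 relative did fall, BTN3A1 from 7.48 and 6.64 to 2.18 and 2.53 FPKM, and VTCN1, an inhibitory B7 ligand, from 10.6 and 9.31 to 2.37 and 2.52 FPKM (log2 fold change -1.67, standard error 0.15, adjusted p = 0.0221). Of the keratins, KRT18 had 1286 and 1423 FPKM with vehicle and 817 and 912 with DEM, KRT7 25.9 and 25.4 FPKM with vehicle and 10.4 and 14 with DEM (adjusted p = 0.101 and 0.06), and KRT4, a keratin of mucosal epithelia, fell from 75.3 and 58.8 to 28.7 and 23.9 FPKM (log2 fold change -1.31, standard error 0.17, adjusted p = 0.0422). OVOL1, a zinc finger factor of epithelial differentiation, rose with a log2 fold change of 0.86 and was the member called of 24 epithelial marker genes. Of the others most were lower, since 18 of the 24 had a log2 fold change below 0 (median -0.16). Below vehicle in both DEM libraries lay 11 of the 24, against 28.2% of all genes tested, and 5 were called downregulated against 1 upregulated with the spread of all 8 libraries. CDH1, E-cadherin, had 101 and 137 FPKM with vehicle and 92.4 and 146 with DEM (adjusted p = 0.979).

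Most called genes, 107 of 152, were on none of the 59 lists. RAP1GAP, which inactivates the small GTPase RAP1, had 1.31 and 1.89 FPKM with vehicle and 18.1 and 16.4 FPKM with DEM (log2 fold change 2.82, standard error 0.17, adjusted p = 0.00798), and CABYR, a calcium-binding protein of the sperm tail that tumours can express, 1.57 and 2.06 FPKM with vehicle and 17.4 and 18.1 FPKM with DEM (log2 fold change 2.74). MEGF9, a membrane protein with EGF-like domains, went from 7.75 and 9.14 to 29.7 and 31.2 FPKM. TDP2, which removes trapped topoisomerase from DNA ends, rose from 20.7 and 23.8 to 82.3 and 69.5 FPKM, and B4GALNT1, of ganglioside synthesis, from 9.55 and 12.4 to 36.2 and 40.3 FPKM. SPSB1, NUMBL and the lipase-like ABHD4 rose with log2 fold changes of 1.62, 1.46 and 1.16. CLEC7A, the beta-glucan receptor of myeloid cells, was detected in this epithelial line and had 10.7 and 10.5 FPKM with vehicle and 37.9 and 28.5 FPKM with DEM (adjusted p = 0.0317), while PTPRC was at or near 0. LRP8, which binds selenoprotein P, rose from 13.5 and 14.8 to 31.4 and 28.9 FPKM. RAB10, a vesicle GTPase, was the most abundant of the unlisted genes named here, with 300.4 and 341 FPKM with vehicle and 617 and 626 FPKM with DEM (log2 fold change 0.95). OSER1 and its divergent transcript OSER1-DT, which share a promoter region, both rose, OSER1 from 30.9 and 33.5 to 66 and 64.6 FPKM and OSER1-DT from 4.76 and 4.36 to 11.3 and 10.2 FPKM, though the files do not say whether counting used strand. TRIM16L, a close copy of TRIM16 that can exchange reads with it, had 14.8 and 17 FPKM with vehicle and 48.3 and 61.4 with DEM.

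Genes called downregulated included regulators of transcription, signalling and cilia. PATZ1, a zinc finger repressor (chromosome 22, 31721790 to 31742332, minus strand of GRCh37), had 11.6 and 11.8 FPKM with vehicle and 2.68 and 3.10 FPKM with DEM (log2 fold change -1.71, standard error 0.15, adjusted p = 0.0183). MAP2K6, a kinase that activates p38, had 4.18 and 3.99 FPKM with vehicle and 0.285 and 0.816 FPKM with DEM. Its DEM mean was under 1 FPKM, as in 5 of the 55 genes called downregulated. MAB21L4, NAT14, an acetyltransferase-like gene, and the antisense transcript GPC1-AS1 fell with log2 fold changes of -1.63, -1.31 and -1.38. Reads of GPC1-AS1 and of its partner GPC1 cannot be told apart unless counting used strand. TCEAL1, a nuclear protein related to elongation factor SII, had 8.70 and 7.19 FPKM with vehicle and 1.97 and 2.02 FPKM with DEM (log2 fold change -1.57). Several genes of cilia and centrioles fell, chosen here after their values were seen: MNS1 from 3.66 and 4.35 to 0.825 and 1.06 FPKM, CEP41 from 12.7 and 11.9 to 4.98 and 5.32 FPKM, FUZ from 11.9 and 14.9 to 5.78 and 5.73 FPKM and MDM1 from 8.69 and 9.56 to 3.76 and 3.34 FPKM. IFT25, a subunit of the intraflagellar transport complex, rose instead, with 17 and 18.7 FPKM with vehicle and 52.4 and 49.1 FPKM with DEM (log2 fold change 1.46, standard error 0.13, adjusted p = 0.0183). AMOT, which binds YAP, and WNT10A, a secreted WNT ligand, fell with log2 fold changes of -1.03 and -1.01, and SDC2, a heparan sulfate proteoglycan, with -1.21. AMOT had 76.9 and 79.2 FPKM with vehicle and 35.1 and 40.2 with DEM and WNT10A 55.4 and 60.5 FPKM with vehicle and 28.9 and 27.7 with DEM. FAM111B, a serine protease, had 20.4 and 21.1 FPKM with vehicle and 7.70 and 9.31 with DEM (adjusted p = 0.0365). ZFP36L2, which destabilises AU-rich mRNAs, and the mitochondrial CHCHD10 fell with log2 fold changes of -0.94 and -0.88. SNORA12 and RNU2-59P, small RNAs called downregulated, were among 4 called genes listed at or practically at 0 in both libraries of a group, for which no fold is given. SNORA12 and RNU2-59P were at 0 in both DEM libraries and with vehicle at 2.95 and 3.50 FPKM and at 2.34 and 2.68 FPKM.

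The response of ABC1 was then compared with that of HCC4006 by the interaction of line and treatment, over the 13682 genes that averaged 1 FPKM or more in the 8 libraries. The difference was called for 87 genes, of which 45 (0.329%) had the larger log2 fold change in ABC1 and 42 (0.307%) the smaller. Among the 97 upregulated genes of ABC1, 92 were tested within HCC4006, 90 had a log2 fold change above 0 there and 77 were called upregulated, and of the 55 called downregulated, 43 were tested, 38 were below 0 and 24 were called downregulated. Of all 11539 genes tested in both lines, 48.4% had a log2 fold change above 0 in HCC4006 and 51.6% one below, 8.8% were called upregulated there and 10.1% downregulated. None of the genes called in ABC1 was called in the opposite direction. TP53I3 had the smallest interaction p of the genes called in ABC1: in HCC4006 it had 41 and 43.2 FPKM with vehicle and 46.4 and 46.1 FPKM with DEM, and the log2 fold changes of the lines differed by 1.92 (standard error 0.12, adjusted p = 0.00406 by limma). CDKN1A rose in ABC1 and in HCC4006 had 76.4 and 84.2 FPKM with vehicle and 83.7 and 79.95 FPKM with DEM (difference 1.19, adjusted p = 0.0357). VEGFA and P4HA2 had log2 fold changes of 0.35 and 0.16 in HCC4006 (adjusted p of the differences = 0.0232 and 0.0172). DNAJB4 rose by more in ABC1 (log2 fold change 2.42 against 0.55, adjusted p = 0.0209), whereas MAP2, a microtubule-associated protein, rose by less, from 14.3 and 16.5 to 32.9 and 38.3 FPKM against 14.8 and 14.8 FPKM with vehicle and 90.00 and 91.3 FPKM with DEM in HCC4006. JUN was lower with DEM by a larger amount in ABC1, since HCC4006 had 31.4 and 29 FPKM with vehicle and 24.9 and 22.5 FPKM with DEM (difference -1.11, adjusted p = 0.0371). AKR1C1 had log2 fold changes of 3.25 in ABC1 and 1.99 in HCC4006, RAP1GAP of 2.82 and 1.11, and KRT4 of -1.31 and 0.24 (adjusted p of the differences = 0.0388, 0.0382 and 0.0437). KRT4 was low in HCC4006, with 1.73 and 1.93 FPKM with vehicle and 2.02 and 2.69 FPKM with DEM. At such values the scale understates a change. For HMOX1 and SLC7A11 the difference was not called. HMOX1 had log2 fold changes of 3.19 and 3.09 (difference 0.10, 95% confidence interval -0.23 to 0.43), and SLC7A11 of 2.55 and 2.76 (difference -0.21, -0.50 to 0.08). Some differences were of genes not called in ABC1. BMAL1, a core clock activator, had 6.08 and 6.45 FPKM with vehicle and 4.12 and 4.19 with DEM in ABC1 (log2 fold change -0.49 against 1.19 in HCC4006, adjusted p of the difference = 0.0112), FHL2, a cofactor of transcription, 15.6 and 13.8 FPKM with vehicle and 24.4 and 25.9 with DEM (0.74 against -0.85, adjusted p = 0.0142), and the guanine exchange factor NET1 25.9 and 28.6 FPKM with vehicle and 36.7 and 36.6 with DEM (0.42 against -1.17, adjusted p = 0.0172). MID1, SLC6A6 and SDCBP2 had log2 fold changes of -0.57, -0.20 and -0.20 in ABC1 against 0.87, 1.30 and 1.62 in HCC4006, and DKK1, a WNT inhibitor, 0.00 against -1.64. MYCN, AMOT, CLIC5, WNT10A and GPC1-AS1, which fell in ABC1, had at most 0.261 FPKM in any HCC4006 library, so a decrease could not have been seen there.

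**Figure D5:**
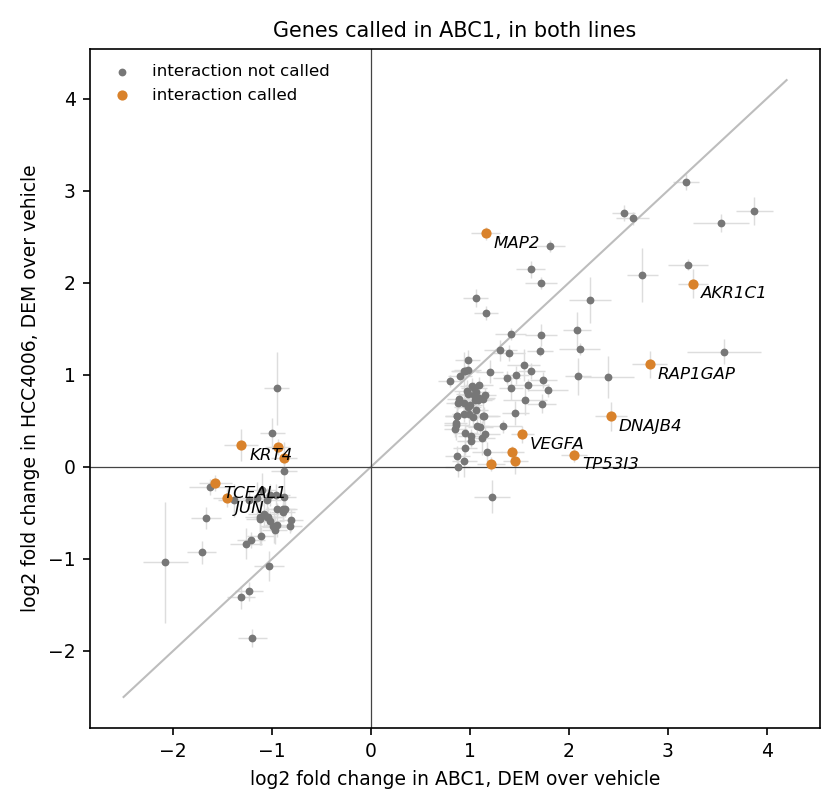
Log2 fold change of DEM over vehicle in HCC4006 (vertical axis) against that in ABC1 (horizontal axis) for the 135 genes called in ABC1 that were tested in both lines, with standard errors as grey bars, the grey diagonal marking equal changes, and orange points where the interaction was called. TP53I3, at 2.05 in ABC1, lies at 0.13 in HCC4006, and MAP2 lies above the diagonal.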

How the data were processed

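RNA-seq was made with a strand-specific kit after poly(A) selection. The authors deposited 1 table of FPKM per library. The methods name TopHat and Cufflinks, and the submitters' processing notes list STAR 2.5.3a, Cuffnorm, HTSeq and DESeq2 on hg19, so the aligner is not certain. The authors' DESeq2 comparison was not used. FPKM holds no read counts, so depth and its precision are unknown. Symbols and positions came from GENCODE v44lift37 (GRCh37) and promoters from RefSeq (GRCh38.p14).

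FPKM was taken as log2(FPKM + 1), genes averaging under 1 FPKM were left out, and DEM was compared with vehicle by limma 3.58.1 in R 4.3.3 (trended variance, Benjamini-Hochberg adjustment, threshold 0.05). A fit over all 8 libraries gave a shared spread and the difference between lines. The script was tested on simulated data. Alternatives were other pseudocounts, filters, scalings, a replicate block, no variance trend and leaving out each library. Genes were named by rule: the 15 called genes with the largest and the 15 with the smallest log2 fold change without overlap, the called and the 2 farthest members of each list, a fixed list of stress and growth genes, the 10 largest rises and falls of mean FPKM, and the 10 smallest interaction p. Not all farthest list members are printed, and a few genes of the rule are not reported here. ME1 and AKR1B10, of the fixed list, averaged under 1 FPKM. Other genes were chosen after their values were seen. Members and lists were chosen with earlier results of these data known.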

Additional observations from a re-analysis of the deposited data

Results flagged for a closer look

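The genes below differed in their DEM response between ABC1 and HCC4006 by the interaction of line and treatment (limma with Benjamini-Hochberg adjustment), each value being the log2 fold change in ABC1 minus that in HCC4006, with 2 libraries per line and treatment. Among genes called upregulated in ABC1, the difference was 1.92 for TP53I3 (adjusted p = 0.00406), 1.88 for DNAJB4 (adjusted p = 0.0209), 1.26 for AKR1C1 (adjusted p = 0.0388), 1.19 for CDKN1A (adjusted p = 0.0357), 1.18 for VEGFA (adjusted p = 0.0232), 1.27 for P4HA2 (adjusted p = 0.0172), 1.70 for RAP1GAP (adjusted p = 0.0382) and 1.40 for IFT25 (adjusted p = 0.0357). Among genes called downregulated in ABC1, it was -1.11 for JUN (adjusted p = 0.0371), -1.55 for KRT4 (adjusted p = 0.0437), -1.40 for TCEAL1 (adjusted p = 0.0209), -1.15 for ZFP36L2 (adjusted p = 0.0209) and -0.97 for CHCHD10 (adjusted p = 0.0377). KRT4 was low in HCC4006, with 1.73 and 1.93 FPKM with vehicle and 2.02 and 2.69 FPKM with DEM. For 5 genes with at most 0.261 FPKM in any HCC4006 library, where no fall could have been seen, the difference was -1.40 for GPC1-AS1 (adjusted p = 0.0254), -1.20 for MYCN (adjusted p = 0.0357), -0.99 for AMOT (adjusted p = 0.0496), -1.27 for CLIC5 (adjusted p = 0.0254) and -1.05 for WNT10A (adjusted p = 0.0388). MAP2 was called upregulated in ABC1 and had a smaller response there, with a difference of -1.38 (adjusted p = 0.0209). Among genes not called in ABC1, the difference was 1.64 for DKK1 (adjusted p = 0.0172), 1.59 for FHL2 (adjusted p = 0.0142) and 1.59 for NET1 (adjusted p = 0.0172), and it was -1.69 for BMAL1 (adjusted p = 0.0112), -1.32 for CBR3 (adjusted p = 0.0378), -1.44 for MID1 (adjusted p = 0.0172), -1.82 for SDCBP2 (adjusted p = 0.0172) and -1.49 for SLC6A6 (adjusted p = 0.0172). What sets the lines apart was not tested.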

How the results depend on the processing

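The number of genes called in ABC1 depended on the spread and the filter, and the cause was not tested. Against 97 upregulated and 55 downregulated, the counts were 184 and 115 with median-of-ratios scaling, 170 and 129 with quantile normalisation, 27 and 6 with no mean-variance trend, 236 and 227 among protein-coding genes only, 779 and 788 with the spread of all 8 libraries, and 10 to 51 and 8 to 18 with 1 ABC1 library left out. The downregulated count was 94 at a minimum mean of 5 FPKM and 119 with equal library sums (TPM). With no minimum FPKM limma called 0 and 0, while 1908 and 1975 genes passed an unadjusted p under 0.05. Of the 152 calls, 152 were also called with median-of-ratios scaling, 150 with quantile normalisation, 132 with TPM, 148 and 151 with pseudocounts of 0.1 and 0.5, and 33 without the trend. The labels do not say whether same-numbered libraries belong together, and the correlation of their deviations (0.258, 2 pairs) cannot settle it. With the replicate number as a block 1185 and 1163 genes were called, and 13 differed between the lines. The 87 differences between the lines were 20 and 51 with pseudocounts of 0.1 and 0.5, 403 with no minimum FPKM and 4 to 41 with 1 library left out. No called gene named here changed direction under any alternative. Uncalled genes with small changes did, in log2 fold change: under quantile normalisation CCNB1 (-0.00206), MKI67 (-0.0328), under equal library sums (TPM) DKK1 (-0.0268), HSP90B1 (-0.0303), HSPA8 (-0.00118), MKI67 (-0.0353), under median-of-ratios scaling E2F1 (0.00653), and with 1 ABC1 library left out ACTB (-0.445 to 0.0115), CCNB1 (-0.0291 to 0.132), CCND1 (-0.0681 to 0.50), CDH1 (-0.345 to 0.313), DKK1 (-0.0419 to 0.0498), E2F1 (-0.172 to 0.155), GAPDH (-0.0266 to 0.351), HSP90B1 (-0.12 to 0.136), HSPA8 (-0.137 to 0.212), MKI67 (-0.125 to 0.129), MT-ATP8 (-0.292 to 0.895), SCD (-0.389 to 0.0971) and SLC40A1 (-0.215 to 0.158). Under quantile normalisation MT-ATP8 had a value of 0, which has no direction. The median of the clock genes was 0.0668 at a minimum mean of 5 FPKM, that of the WNT target genes 0.00398 with no minimum and 0.0703 at 5 FPKM, and that of the MYC network -0.238 to 0.0133 with 1 library left out. Depth is unknown, so what it limits could not be given. A left-out library leaves an arm with 1 sample, which was assumed to vary like the others.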

Other observations

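Other gene groups of ABC1 gave few or no calls in the 4 libraries. Of 5 metallothionein and zinc transport genes tested, the zinc importer SLC39A10 was called (1 up and 1 down with the spread of all 8 libraries), and it fell from 18.2 and 17.4 to 8.63 and 8.50 FPKM (log2 fold change -0.98, standard error 0.13, adjusted p = 0.0422). MT2A, a metallothionein, had 11 and 11.3 FPKM with vehicle and 13.2 and 20.3 with DEM (adjusted p = 0.231). Among 5 transporters that export conjugates and drugs, none was called (2 up and 0 down with the spread of all 8 libraries), ABCC5 had 165 and 156 FPKM with vehicle and 229.6 and 229 with DEM and ABCB6 1.03 and 1.91 FPKM with vehicle and 3.63 and 3.64 with DEM (adjusted p = 0.1 and 0.11). The apoptosis promoter PMAIP1 had 3.38 and 4.17 FPKM with vehicle and 7.28 and 7.89 with DEM and the anti-apoptotic BCL2L1 94.8 and 100.2 FPKM with vehicle and 78.9 and 90.7 with DEM (adjusted p = 0.0705 and 0.417), and none of 16 BCL2 family genes was called (2 up and 0 down with the spread of all 8 libraries).

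Genes that report YAP activity, 20 in number, held no call (0 up and 4 down with the spread of all 8 libraries) and 15 had a log2 fold change below 0 (median -0.07). CCN1 had 74.2 and 69.4 FPKM with vehicle and 46.8 and 52.3 with DEM and CCN2 39.4 and 33.3 FPKM with vehicle and 24.4 and 25.4 with DEM, neither with overlapping groups (adjusted p = 0.101 and 0.115, and 0.0152 and 0.0234 with the spread of all 8 libraries). TUBB, a beta-tubulin, had 670.3 and 737 FPKM with vehicle and 363 and 408 with DEM and TUBA4A 20.7 and 27.7 FPKM with vehicle and 37 and 48.6 with DEM (adjusted p = 0.0614 and 0.11). H19, an imprinted noncoding RNA, had 69.3 and 85.5 FPKM with vehicle and 39.2 and 45.6 with DEM (adjusted p = 0.0696). Of 16 clock genes, none was called (1 up and 4 down with the spread of all 8 libraries). CRY1, a repressor, had 5.89 and 6.29 FPKM with vehicle and 3.22 and 3.95 with DEM and NFIL3, which opposes DBP, 6.88 and 7.39 FPKM with vehicle and 12.5 and 10.7 with DEM (adjusted p = 0.116 and 0.0959), while DBP had 10.2 and 11.1 FPKM with vehicle and 6.86 and 6.01 with DEM (adjusted p = 0.091).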
